A study of Mus musculus with 8 samples.

Results

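The 10 genes described here encode proteins of the myelin sheath of the central nervous system: Mbp, Mog, Mag, Mobp, Cnp, Cldn11, Mal, Opalin, Ermn and Tspan2. They were taken by name, with earlier results of these data known. Each was read from the transcript cluster (a set of array probes along 1 transcript) that the platform annotation gives to that gene alone. All 10 had exactly 1 such cluster, out of 28944 clusters on the array, of which 23410 carry at least 1 gene symbol and were tested. The samples were corpus callosum, the white matter tract that links the left and right hemispheres. The cuprizone group had been given 0.25% cuprizone, a copper chelator toxic to oligodendrocytes, for 1 week, and the control group had normal diet. All mice were C57BL/6 males with the wild-type genotype, aged 8 weeks per the labels. Each group had 4 samples, which the labels call biological replicates, and total RNA of each was measured on 1 array of the type Mouse Gene 1.0 ST from Affymetrix.

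Myelin is wrapped plasma membrane of the oligodendrocyte. In its compact part the cytoplasm is squeezed out and the inner membrane faces are held together by basic proteins such as that encoded by Mbp, whereas the innermost and outermost turns and the cytoplasmic channels stay open and carry Mag, Mog and Cnp. The mRNA of Mbp is carried into the processes and translated beside the sheath. The transcription factors Sox10 and Myrf are known to drive many of these genes in the differentiated oligodendrocyte.

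The stretch of 250 bases before the annotated transcription start is shown for the genes whose levels fell most, Mog, Mag and Mal, and for Cnp and Mobp, whose levels fell least among the genes with a window. The sequences are from RefSeq on build GRCm38.p6, 5′ to 3′ on the gene's strand, at the outermost annotated start, and 9 of the 10 genes matched. Mbp was not matched. Capitals mark matches on either strand to 2 motifs, a Sox-type one spelled ACAANG and a Myrf-type one spelled CTGGNAC. The windows are chr17:37023399-37023648 (minus strand) for Mog, chr7:30914923-30915172 (minus) for Mag, chr2:127656696-127656945 (minus) for Mal, chr11:100574689-100574938 (plus) for Cnp and chr9:120149492-120149741 (plus) for Mobp.
Mog: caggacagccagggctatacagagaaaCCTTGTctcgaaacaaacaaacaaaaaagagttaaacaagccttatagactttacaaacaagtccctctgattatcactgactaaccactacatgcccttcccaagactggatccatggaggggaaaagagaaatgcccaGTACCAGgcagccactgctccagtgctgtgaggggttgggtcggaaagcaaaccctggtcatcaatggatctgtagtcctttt
Mag: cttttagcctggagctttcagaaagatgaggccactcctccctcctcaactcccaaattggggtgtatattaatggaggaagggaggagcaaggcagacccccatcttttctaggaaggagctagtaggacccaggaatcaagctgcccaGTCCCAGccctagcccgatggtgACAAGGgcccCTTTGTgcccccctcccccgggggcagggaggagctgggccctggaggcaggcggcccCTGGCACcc
Mal: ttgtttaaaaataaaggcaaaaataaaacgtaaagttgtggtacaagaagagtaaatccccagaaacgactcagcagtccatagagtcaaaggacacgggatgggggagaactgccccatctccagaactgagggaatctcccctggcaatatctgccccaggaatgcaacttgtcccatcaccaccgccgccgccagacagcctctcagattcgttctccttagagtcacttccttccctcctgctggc
Cnp: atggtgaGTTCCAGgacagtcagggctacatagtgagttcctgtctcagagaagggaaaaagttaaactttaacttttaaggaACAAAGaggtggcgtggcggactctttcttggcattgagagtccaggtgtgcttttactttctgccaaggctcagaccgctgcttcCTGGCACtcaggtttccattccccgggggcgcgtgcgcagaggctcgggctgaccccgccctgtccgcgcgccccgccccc
Mobp: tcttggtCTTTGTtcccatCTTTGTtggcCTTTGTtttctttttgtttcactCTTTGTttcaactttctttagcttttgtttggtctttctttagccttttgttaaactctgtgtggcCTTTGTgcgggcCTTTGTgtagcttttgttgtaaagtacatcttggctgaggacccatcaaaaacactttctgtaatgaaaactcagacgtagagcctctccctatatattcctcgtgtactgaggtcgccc

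Mog held 1 match to the Myrf-type and 1 to the Sox-type motif, Mag 2 of each, Cnp 2 Myrf-type and 1 Sox-type, Mobp 6 Sox-type and Mal none. Among the 9 windows 3 held a Myrf-type match, against 15.9% of 27025 windows, 1 for each gene in the RefSeq table. A Sox-type match was present in 6 of the 9, against 36.6% of all windows, and both motifs in 3, against 5.98%. The E-box CAGNTG, bound by Olig factors among others, was present in 3 of the 9, against 44.5% of all windows. The matches do not overlap each other in the windows shown, and they are letters, not sites of binding. The windows ranged in GC content between 40.8% and 63.6%, with a median of 52% over all windows. Both the large decreases of Mog and Mag and the smaller one of Cnp belong to windows with both motifs, and the large decrease of Mal to a window with neither.

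After 1 week of cuprizone all 10 genes were lower. Each had an adjusted p under 0.05 in limma, and each was at least 2-fold lower. Over all tested clusters 3.52% were called lower and 0.316% were called lower at a size of at least 2-fold. On all 10 genes every cuprizone array lay below every control array, as was the case for 7.09% of the tested clusters. The median log2 fold change of the 10 genes was -2.08, and that of all tested clusters -0.01. Ranked by log2 fold change, Mog, Mag and Mal were the 3 largest decreases of all 23410 clusters, and Mbp, with the smallest decrease of the 10, ranked 48.

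**Figure D1:**
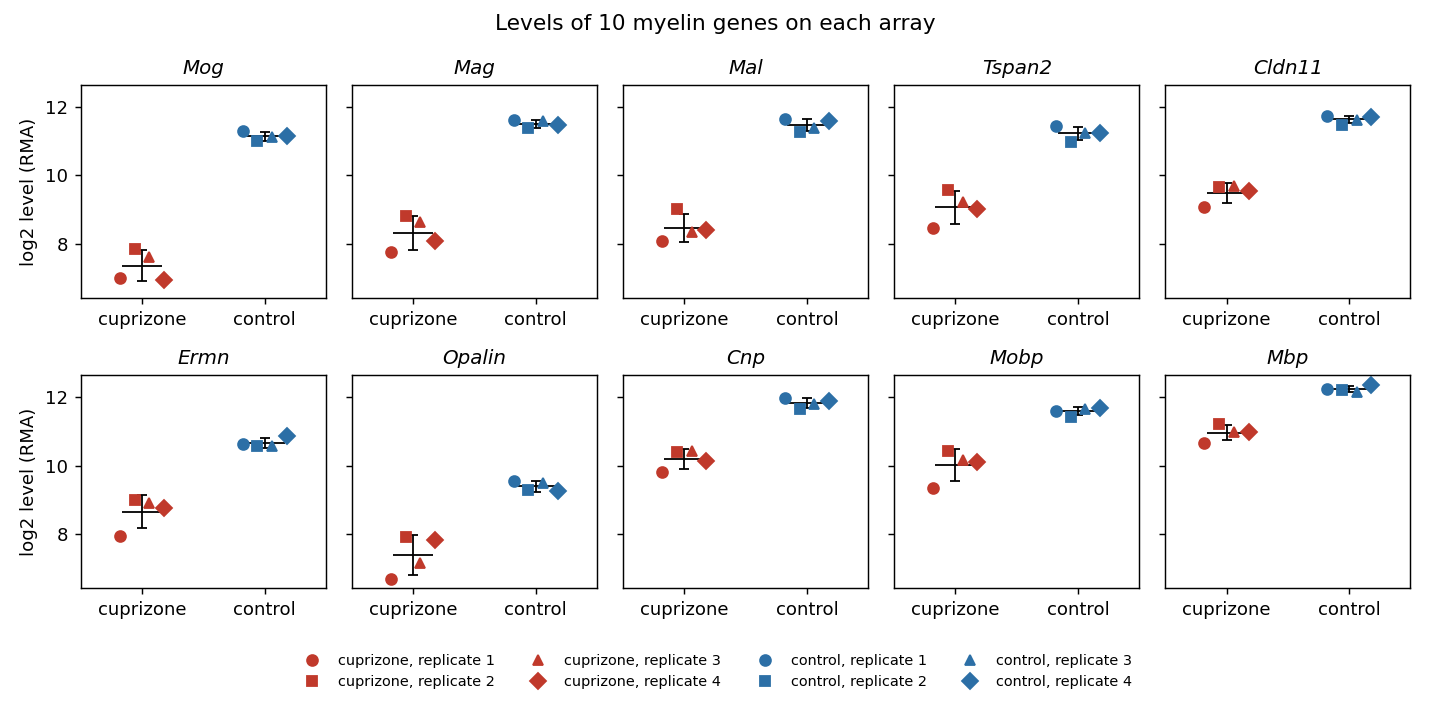
Log2 level (RMA, vertical axis) of each of the 10 genes on the 4 cuprizone arrays (red) and the 4 control arrays (blue), with a marker shape for each replicate number and the mean ± SD in black. The cuprizone arrays lie below the control arrays in all 10 panels, and their spread is wider.

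The 2 genes of the myelin surface fell furthest. Mog encodes a glycoprotein of the immunoglobulin superfamily on the outermost turn of the sheath, a known autoantigen. Its log2 level was 7.01, 7.86, 7.63 and 6.93 on cuprizone replicates 1 to 4, against 11.29, 11.01, 11.11 and 11.14 on control replicates 1 to 4. The gap between the highest cuprizone and the lowest control array was 3.15, several times the spread within either group. The log2 fold change was -3.78 ± 0.18 (SE, limma adjusted p = 1.14e-06), which leaves 7.27% of the control level on the linear scale. Mag encodes a sialic acid-binding adhesion protein of the turn next to the axon, which binds axonal gangliosides and Nogo receptors. It stood at 7.76, 8.80, 8.64 and 8.07 on the cuprizone arrays, against 11.62, 11.38, 11.60 and 11.47 on the control arrays. Cuprizone replicates 1 and 4 were the lowest for both genes, and the groups were separated by 2.57 for Mag. Its log2 fold change was -3.20 ± 0.19 (limma adjusted p = 3.90e-06).

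Genes of proteins that span the membrane 4 times, or of small membrane glycoproteins, covered a range of decreases. Mal, a proteolipid of the MARVEL family that takes part in membrane sorting, stood at 8.07, 9.01, 8.35 and 8.41 on the cuprizone arrays, against 11.64, 11.28, 11.40 and 11.59 on the control arrays. It fell 8.08-fold (log2 fold change -3.01 ± 0.17, limma adjusted p = 2.19e-06), with cuprizone replicate 2 the highest of its group. Cldn11, the claudin of the tight junction strands between myelin turns, stood at 9.07, 9.65, 9.70 and 9.53, against 11.73, 11.49, 11.63 and 11.70 on the control arrays. Its decrease was 4.43-fold, and cuprizone replicate 1 lay apart from 3 arrays that were close to each other.

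Tspan2, a tetraspanin of the oligodendrocyte, had levels of 8.45, 9.58, 9.23 and 9.004 on the cuprizone arrays, against 11.44, 10.97, 11.25 and 11.24 on the control arrays. The decrease was 4.47-fold, and the control range, 0.47, was the widest of the 10 genes, set by control replicate 2. Opalin, a sialylated membrane glycoprotein found in oligodendrocytes, stood at 6.69, 7.90, 7.14 and 7.81, against 9.55, 9.27, 9.49 and 9.25 on the control arrays. It fell 4.01-fold, and its cuprizone arrays spread further than those of the other 9 genes, over a 2.32-fold range with replicates 1 and 3 low. The SE was accordingly the largest of the 10 (log2 fold change -2.005 ± 0.23, limma adjusted p = 0.000275).

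The genes of cytoplasmic and cytoskeletal proteins included the smallest decreases. Mbp, whose protein joins the inner faces of compact myelin, stood at 10.67, 11.21, 10.996 and 10.97 on the cuprizone arrays, against 12.23, 12.22, 12.17 and 12.36 on the control arrays. The groups lay 0.95 apart at their nearest, and 41.1% of the control level was left (log2 fold change -1.28 ± 0.10, limma adjusted p = 2.23e-05). The level of the Mbp cluster in control tissue, 12.25 ± 0.08 (SD, n = 4), was the closest of the 10 to the highest value in the table, 14.1. Whether its probes were near saturation was not tested. Mobp, a small basic protein of the compact sheath, stood at 9.34, 10.44, 10.18 and 10.10, against 11.61, 11.42, 11.66 and 11.69 on the control arrays. Its log2 fold change was -1.58 ± 0.19 (limma adjusted p = 0.000366), the largest adjusted p of the 10 genes, and cuprizone replicate 1 stood well below the others of its group.

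Cnp, the cyclic nucleotide phosphodiesterase that keeps cytoplasmic channels in myelin open, stood at 9.81, 10.40, 10.42 and 10.14 on the cuprizone arrays, against 11.97, 11.64, 11.81 and 11.89 on the control arrays. It was 3.11-fold lower (log2 fold change -1.64 ± 0.13, limma adjusted p = 2.20e-05). Ermn encodes ermin, an actin-binding protein of late myelination. Its levels were 7.94, 8.998, 8.90 and 8.77, against 10.63, 10.57, 10.58 and 10.86 on the control arrays, a 4.03-fold decrease. Cuprizone replicate 1 was again the low array. In bulk tissue such as this, fewer oligodendrocytes and less of an mRNA in each cell cannot be told apart.

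**Figure D2:**
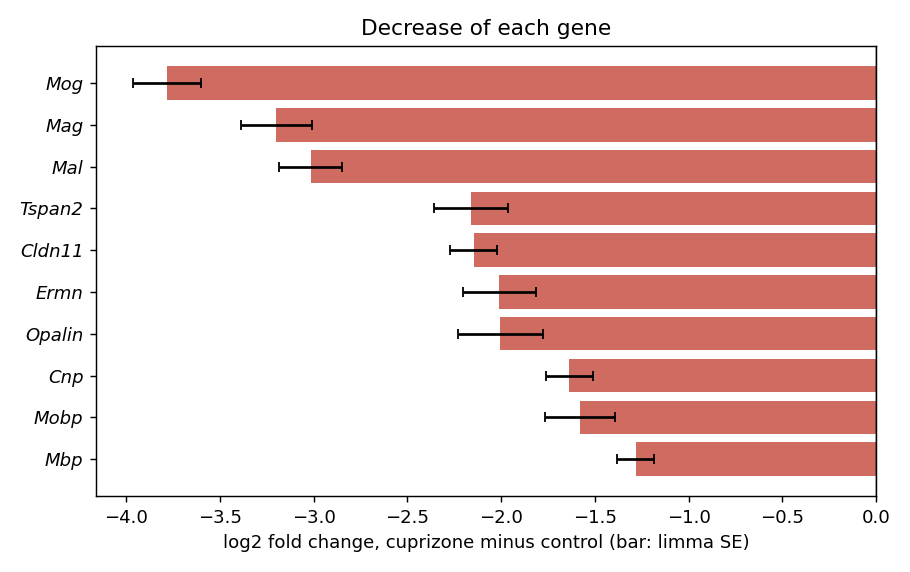
Log2 fold change (cuprizone minus control, horizontal axis) of each gene, with the limma SE as the error bar. The decreases run between -3.78 for Mog at the top and -1.28 for Mbp at the bottom.

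The genes did not fall by the same amount. For each of the 45 pairs the difference in level between the genes was formed on every array and compared between the groups by exact permutation (two-sided, all 70 ways to divide the arrays), with p-values adjusted over the 45 pairs. In 33 pairs the differences of the groups did not overlap. Each of them had an exact p of 0.0286, the smallest this design allows, or 0.0390 after adjustment. That adjusted value depends on how many of the 45 pairs reach the smallest p. The pairs share genes and arrays, so they are not independent. Mog minus Mbp was -3.66, -3.35, -3.37 and -4.04 on the cuprizone arrays, against -0.94, -1.21, -1.06 and -1.22 on the control arrays. The log2 fold change of Mog minus that of Mbp was thus -2.50 ± 0.17 (SE). Mog also fell further than Mag (log2 difference -0.58 ± 0.09) and than Mal (-0.77 ± 0.16), both at that same exact p.

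Mag and Mal were not separated (log2 difference -0.18 ± 0.16, adjusted exact permutation p = 0.330), and each fell further than the 7 genes below them. Tspan2, Cldn11, Ermn and Opalin, with log2 fold changes between -2.16 and -2.005, were separated in none of their 6 pairs, with differences of up to 0.16. Cnp, Mobp and Mbp were likewise not separated from each other. Cnp fell further than Mbp by 0.35 ± 0.09 and Mobp further than Mbp by 0.30 ± 0.14, both with an adjusted exact permutation p of 0.0714. The other 2 pairs past no threshold were Opalin with Mobp (difference -0.42 ± 0.18) and Opalin with Cnp (-0.37 ± 0.24). With 4 arrays a group, missing the threshold does not show that these genes fell alike. RMA is known to shrink folds at the bright and dim ends of its range, and its part in this order was not tested.

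**Figure D3:**
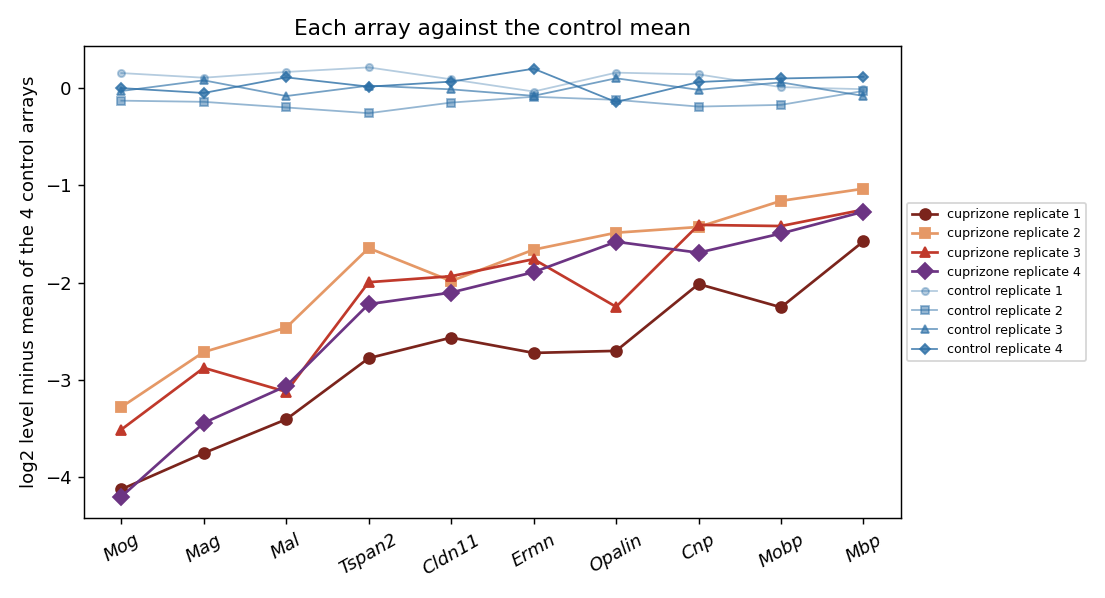
Log2 level minus the mean of the 4 control arrays (vertical axis) for each gene (horizontal axis, largest decrease at the left), 1 line for each array. The 4 cuprizone lines run below the 4 control lines throughout, cuprizone replicate 1 is the lowest for 9 of 10 genes and cuprizone replicate 2 the highest for 8.

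The arrays kept much the same order over the 10 genes. Cuprizone replicate 1 was the lowest of its group in 9 genes, all except Mog, where replicate 4 was lower. Cuprizone replicate 2 was the highest in 8, and replicate 3 in Cldn11 and Cnp. The median of the 10 deviations from the control mean was -2.71, -1.65, -1.97 and -1.998 on cuprizone replicates 1 to 4, against 0.13, -0.14, -0.01 and 0.07 on control replicates 1 to 4. Control replicate 2 was the lowest control in 8 genes. Among all clusters called lower, cuprizone replicate 1 was lowest in 43.0%, cuprizone replicate 2 highest in 42.6% and control replicate 2 the lowest control in 46.5%. These arrays therefore also stood low or high in clusters outside the 10 genes, among those called lower. Clusters not called lower were not counted in this way.

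The cuprizone arrays also differed more among themselves. The SD was larger in the cuprizone than in the control group in all 10 genes, by factors of 2.01 (Cnp) to 4.19 (Mag), where 19.8% of all clusters called lower had a factor of at least 2. Across the 4 cuprizone arrays levels varied 1.46-fold for Mbp and 2.32-fold for Opalin. The genes are measured on the same arrays, so they are not separate observations of this spread. With group means removed, the deviations of the genes on the 8 arrays correlated positively in all 45 pairs, with a median Pearson r of 0.82. The highest was 0.97, for Cldn11 with Cnp, and Mobp with Ermn reached 0.96. The lowest was 0.35, for Mog with Opalin, which differ in which of cuprizone replicates 3 and 4 is low. These correlations describe 8 arrays with shared animals and shared normalization. The 4 cuprizone arrays, with their larger SDs, weigh most in them.

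Of the genes that are not among the 10, the 8 whose levels over the 8 arrays correlated best with the mean of the 10 were chosen among 17086 named single-gene clusters. They were Abca2, a lipid transporter of oligodendrocytes (r = 0.999), Anln, the anillin that organises septins in myelin (0.998), and Fa2h, the fatty acid hydroxylase of myelin lipids (0.998). Mcam, an adhesion molecule (0.997), Ttyh2, a membrane protein gene of the tweety family (0.997), the netrin receptor gene Unc5b (0.997), and Trp53inp2 and Wipi1, both genes of autophagy (0.997 each), followed. Much of each r is the difference between the groups, so the choice itself fixed that all 8 were lower. Their log2 fold changes lay between -2.60 ± 0.12 for Fa2h and -0.37 ± 0.05 for Wipi1. Trp53inp2 (-0.64 ± 0.07), Abca2 (-0.86 ± 0.07) and Mcam (-0.96 ± 0.07) also had values closer to 0 than that of Mbp, -1.28, and these differences were not tested. With group means removed, Fa2h had an r of 0.997 with the mean of the 10, and Wipi1 0.917. The choice by r over the same 8 arrays also favoured high values here, so they are no separate evidence.

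Other genes of the sheath and of the mature oligodendrocyte, listed with earlier results of these data known, fell nearly throughout. Of 38 measured genes in a list that holds none of the 10, 37 were called lower, 25 of them by at least 2-fold. The shares of all tested clusters were 3.52% and 0.316%. In limma 0 genes of the list were higher, also at an unadjusted p under 0.05. The median log2 fold change was -1.33, beside -2.08 for the 10 genes. Klk6, a protease gene of mature oligodendrocytes, averaged 6.91 ± 0.07 on the cuprizone arrays, against 8.77 ± 0.06 on the control arrays (SD, n = 4 each). Its decrease was 3.63-fold, and its SD on the cuprizone arrays was below that of each of the 10 genes, of which Mbp had the smallest (0.22). The axoglial adhesion gene Cntn2 fell 2.46-fold and Efhd1, a calcium-binding protein gene, 3.64-fold. The gene not called, named for that reason, was Cd9, a tetraspanin (log2 fold change -0.19 ± 0.08, limma adjusted p = 0.224). At an unadjusted p under 0.05 in limma all 38 were lower, Cd9 included. Of all tested clusters 20.8% reached that threshold in either direction.

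**Figure D4:**
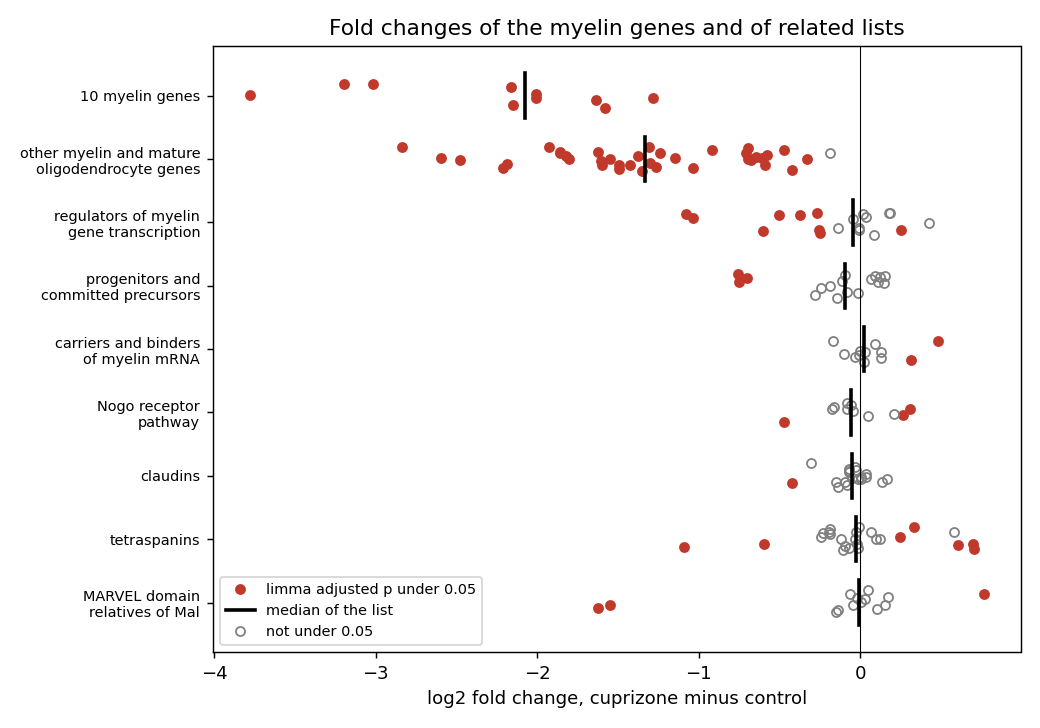
Log2 fold change (cuprizone minus control, horizontal axis) of every measured gene of 9 lists. Filled points have a limma adjusted p under 0.05, open points do not, and the black bar is the median of the list, -2.08 for the 10 myelin genes, -1.33 for other myelin and mature oligodendrocyte genes and between -0.09 and 0.03 for the others.

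The regulators of myelin gene transcription divided. Of 19 measured genes 8 were lower, 1 was higher and 10 were not called, with a median of -0.05. Of all tested clusters 3.52% were called lower and 4.71% higher. Myrf, the factor that starts and maintains myelin gene expression, averaged 8.51 ± 0.28 on the cuprizone arrays, against 9.59 ± 0.10 on the control arrays. It fell 2.12-fold (log2 fold change -1.08 ± 0.12), beside 2.43-fold for Mbp, a difference that was not tested. St18 (-1.03 ± 0.15), Sox8 (-0.60 ± 0.05) and Olig1 (-0.50 ± 0.09) also fell. Singled out after their values were seen, Sox10 was at -0.14 ± 0.08 (limma adjusted p = 0.402) and Olig2, which marks the lineage at all stages, at 0.04 ± 0.09 (limma adjusted p = 0.885). Among genes of progenitors and committed precursors 3 of 17 were lower and 0 higher in limma (7 lower and 2 higher at an unadjusted p under 0.05, which 20.8% of all tested clusters reached in either direction), with a median of -0.09. The 3 were Enpp6 (-0.75 ± 0.07), Rnf122 (-0.70 ± 0.07) and Bcas1 (-0.76 ± 0.11), and both Enpp6 and Bcas1 mark cells about to myelinate.

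Of 12 measured carriers and binders of myelin mRNA 2 were higher and 0 lower in limma (3 higher and 1 lower at an unadjusted p under 0.05), where 3.52% of all clusters were called lower and 4.71% higher. The 2 were the splicing regulator gene Hnrnpf (0.48 ± 0.06) and Pabpc1, which encodes a poly(A)-binding protein (0.31 ± 0.05). The Nogo receptor pathway transmits inhibition by Mag and other myelin proteins to axons. Of its 11 measured genes 1 was lower, Omg, itself a myelin inhibitor (-0.47 ± 0.07), and 2 were higher, the receptor genes Tnfrsf19 (0.31 ± 0.06) and Ngfr (0.27 ± 0.07). The other 8 were not called, against those same shares of all clusters, and the median of the list was -0.05.

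Relatives of the 10 genes in the same protein families moved in both directions. Of 71 such genes measured in 5 lists 5 were lower and 8 higher, 18.3% in all, and 8.22% of all tested clusters were called in either direction. Among 19 other claudins 1 was lower, Cldn14 (-0.42 ± 0.08), 0 were higher in limma (1 at an unadjusted p under 0.05) and the median was -0.05, beside -2.15 ± 0.12 for Cldn11. Among 25 other tetraspanins 2 were lower and 5 higher. Cd82 fell 2.13-fold and Tspan15 1.51-fold, while Tspan4 (0.70 ± 0.09) and Cd151 (0.60 ± 0.09) rose. Among 14 relatives of Mal with a MARVEL domain, Pllp, the plasmolipin of myelin, fell 2.93-fold and Cmtm5 3.08-fold, Cmtm3 rose 1.70-fold and 11 were not called. Of 8 siglecs related to Mag 0 were lower in limma, also at an unadjusted p under 0.05, and Cd33, a myeloid receptor gene, was higher (0.44 ± 0.08). Of 5 genes of the ezrin family and its partners, to which ermin is related in its actin-binding end, Msn, the moesin gene, rose 3.10-fold (limma adjusted p = 2.14e-05), 4 others were not called, and Ermn itself fell.

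Markers of other cells moved with the groups in part. The arrays of all 8 samples had nearly the same distribution, with medians over the tested clusters between 7.44 and 7.49. Over the tested clusters r was 0.995 to 0.997 within groups, and 0.988 to 0.994 between cuprizone and control arrays. In control tissue the 10 genes had mean levels between 9.39 and 12.25, all above the array medians. Of 14 microglia markers 11 were higher, 3 were not called and 0 were lower in limma, the last also at an unadjusted p under 0.05. For comparison, 4.71% of all tested clusters were called higher and 3.52% lower. Among the higher markers were Ptprc, the leukocyte phosphatase (0.99 ± 0.08), Tyrobp (0.94 ± 0.08), C1qb (1.14 ± 0.11) and Csf1r (0.61 ± 0.06). The mean of the microglia list lay 0.42 to 0.79 above the control mean on the cuprizone arrays, against -0.10 to 0.09 on the control arrays. Of 13 astrocyte markers 4 were higher, Gfap (0.96 ± 0.06) and Sox9 (0.43 ± 0.07) among them, and 3 lower, with Slc1a2 (-0.60 ± 0.07) and Glul (-0.49 ± 0.06). The list mean ranged between -0.14 and 0.13 on the cuprizone arrays and between -0.02 and 0.04 on the control arrays. The part of these cells in the decrease of the myelin genes was not tested.

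None of 14 neuron, 12 endothelial and mural, and 10 choroid plexus and ependyma markers was called in limma, where 1, 4 and 2 of them had an unadjusted p under 0.05, a threshold that 20.8% of all tested clusters reached. The mean of the neuron markers lay between -0.08 and 0.07 on the cuprizone arrays and between -0.05 and 0.05 on the control arrays. With that mean as a covariate all 10 myelin genes remained lower. The mean hardly differed between the groups, so this fit could change little and does not test a part of neurons in the decrease. Slc17a7, the vesicular glutamate transporter of cortical neurons, was at 11.28 ± 0.03 on the cuprizone arrays and 11.43 ± 0.02 on the control arrays (limma adjusted p = 0.105), and Syn1 at 11.31 ± 0.01 and 11.39 ± 0.05. In this hand-dissected tract both of these neuronal genes thus had mean levels above the array medians in each group. For endothelial and mural markers the list mean lay between -0.12 and 0.00 on the cuprizone arrays and between -0.02 and 0.02 on the control arrays, and the markers with the smallest p were Kdr (-0.24 ± 0.07) and Slc2a1 (0.22 ± 0.07). The choroid plexus and ependyma mean spread widely in both groups, between -0.48 and 0.30 on the cuprizone arrays and between -0.51 and 0.52 on the control arrays, and Foxj1 (0.21 ± 0.08) and Ccdc153 (-0.14 ± 0.06) had its smallest p.

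Of 8 genes listed for Schwann cells, which make peripheral myelin, 6 were measured. Of these 3 were higher and 3 were not called, where 4.71% of all tested clusters were called higher. The higher ones were Sox2 (0.73 ± 0.07), Gldn (0.84 ± 0.15) and Egr2 (0.48 ± 0.09). In limma 0 were lower (1 at an unadjusted p under 0.05). The part of such cells in the results was not tested. The list mean lay 0.19 to 0.35 above the control mean on the cuprizone arrays, against -0.02 to 0.02 on the control arrays.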

How the data were processed

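The authors deposited log2 levels per transcript cluster, and the submitters' processing notes name RMA, the Transcriptome Analysis Console and Affymetrix Expression Console. Roles, versions and the genome build are not given in the sources used here. The labels' protocols state hand dissection after perfusion and 150 ng of total RNA per array. Clusters were named by the platform annotation: 21789 had 1 symbol, 1621 several and 5534 none. From these values a linear model of the 2 groups was fitted with limma 3.58.1 in R 4.3.3, two-sided, without covariates or a filter, with Benjamini-Hochberg adjustment over 23410 clusters and a threshold of 0.05. The model was tested on simulated data. Errors after a fold change are SEs and after a level SDs over 4 arrays. List genes were read from their brightest single-symbol cluster.

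The 10 genes and all lists were chosen with earlier results of these data known, so lists are described by counts, medians and means per array, with no test of a list. Named were the 10 genes, for each list its called genes with the lowest p (up to 4, or 2 uncalled ones where there were none), and the 8 clusters most correlated with the mean of the 10. Cd9, Sox10 and Olig2 were named beside them after their values were seen. List genes lacking a cluster of their own were not used here. Motifs were searched in Python 3.11.15. The number of arrays limits the precision. The labels call the samples biological replicates and say no more, so p-values measure the spread between these arrays. Scan dates were not used, so no batch was tested. The alternatives were a replicate block, leaving out each array, other priors, scalings and filters, array weights and a neuronal covariate.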

Additional observations from a re-analysis of the deposited data

How the results depend on the processing

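All 10 genes stayed lower with an adjusted p under 0.05 in limma in each of 19 alternatives, 190 values in all. The largest adjusted p was 0.00391, for Opalin, and Mog ranged between -3.99 and -3.64 and Mbp between -1.37 and -1.18 on the log2 scale. Over all clusters the count of lower ones ranged between 609 and 741 and that of higher ones between 795 and 1122 when 1 array was left out, against 823 and 1102 with all arrays. With each array centred on its median 989 were lower and 993 higher, and with a trend and robust prior 963 and 1270. The other myelin and mature oligodendrocyte list had 37 lower genes in 18 of the alternatives, and 33 when clusters below the median level were left out.

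The labels do not say whether the replicate numbers pair the samples. The deviations of same-numbered arrays correlated at -0.19, -0.02, 0.21 and -0.06, and those of differently numbered arrays between -0.27 and 0.16. So few values cannot settle whether the samples were paired. With the replicate number as a block in limma 636 clusters were lower and 892 higher, and the 10 genes remained called. Mog minus Mbp remained -2.50 with the replicate block, but the paired exact permutation test gave an adjusted p of 0.165, and with 4 pairs no exact p can be under 0.125. Without both replicates 2, which was added after seeing the data, the difference was -2.62 with an adjusted exact permutation p of 0.125, where 3 arrays against 3 allow no exact p under 0.1. Leaving out 1 array at a time, it ranged between -2.58 and -2.35, with an adjusted exact permutation p of at most 0.0495. Taking the mean of several clusters of a gene could not be run, since each gene had 1. No level could be set against background without detection calls, and a change common to most transcripts would be removed by the normalization.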

Other observations

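The 6 Sox-type matches in the window before Mobp all read CTTTGT on the gene's strand and lie between 243 and 120 bases before the start. Of 27025 windows 5 (0.0185%) held at least 6 such matches. This window was singled out after it was seen, its stretch is rich in short T runs, and no binding was measured.

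In the 10 genes, the 8 correlated genes and the named genes of the lists, 60 genes in all, the highest and lowest array of each group of 4 were examined for a gap to the others by Dixon's test. None of 120 groups was past the critical value of 0.829, where 5% would be by chance if the genes were independent. Many of these genes were chosen by a small p or a high r over the same arrays, which favours groups without a stray array. With 4 arrays a group the test can miss a stray array, so this result does not show that there was none. For the low cuprizone replicate 1 and the high cuprizone replicate 2 the gaps thus stayed below that value in each of these genes.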
